A study of Mus musculus with 2 samples.

Results

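The genes described here are 9 genes of cholesterol efflux and of the liver X receptors (LXR), taken by symbol from the 32285 genes listed in both libraries. They are Abca1, Abcg1, Abcg5, Abcg8, Scarb1, Nr1h3, Nr1h2, Mylip and Lpcat3, and all 9 were listed and had counts in both. Expression was measured by droplet-based single-cell RNA-seq (10x Genomics 3′ chemistry), in which each barcode stands for a droplet and each captured RNA molecule is counted by its unique molecular identifier (UMI). The assay was used to look for changes in the cells of the diseased liver once hepatocytes lack miR-33. There were 2 libraries of male mice. WT was labelled wild type, and HKO was labelled miR-33 HKO with an AlbCRE genotype, that is, miR-33 loxP/loxP mice with Cre recombinase under the albumin promoter, which is active in hepatocytes. Whether the WT littermates carried floxed alleles is not given in the labels. Other liver cells of HKO mice are not the intended target of the Cre, and whether it also acts in cholangiocytes was not tested. Both groups were littermates kept from 8 weeks of age on CD-HFD, a feed rich in fat that lacks choline, for 6 months, so no library of chow-fed mice enters the comparison. Each library pooled 3 livers, with hepatocytes and sorted non-parenchymal cells combined. Because a genotype had 1 library and no replicate, no test was made, and how much animals differ is not known. Intervals in parentheses are 95% intervals of the counting error.

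Cells cannot degrade the cholesterol ring, so they export what they do not need. Abca1 loads cholesterol and phospholipid onto lipid-poor apolipoprotein A-I and so starts high-density lipoprotein (HDL), Abcg1 adds cholesterol to formed HDL, and the Abcg5 and Abcg8 proteins pair to pump sterols from hepatocytes into bile. Scarb1 (SR-BI) takes up cholesteryl ester from HDL at the hepatocyte surface. Nr1h3 (LXRα) and Nr1h2 (LXRβ) are nuclear receptors for oxysterols that partner RXR and raise these exporters when cholesterol is high. Mylip (IDOL) is a ubiquitin ligase and Lpcat3 places polyunsaturated chains in phospholipids, and both are LXR targets. miR-33 lies in an intron of Srebf2 and represses Abca1 and Abcg1 through sites in their 3′ untranslated regions (3′UTR).

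The sequences of that pairing are shown because they separate Abca1 and Abcg1 from the other 7 genes. The mature microRNA, mmu-miR-33-5p, has 21 bases and lies at chr15:82198127-82198147 on the plus strand (RefSeq, GRCm38.p6). Its seed, bases 2 to 8, is in capitals.
mmu-miR-33-5p: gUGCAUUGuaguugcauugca
Matches were sought on the transcript strand as 8mer (CAATGCAA), 7mer-m8 (CAATGCA) and 7mer-A1 (AATGCAA), each match counted once as the longest kind, in 1 annotated 3′UTR per gene (GENCODE M21, GRCm38). In Abca1, 3 matches lay within 23 bases, the first starting at base 135 after the stop codon (chr4:53033782-53033811, minus strand). In Abcg1, 2 matches lay within 17 bases from base 717 (chr17:31114996-31115025, plus strand), and a single 7mer-A1 lay at base 3081 (chr17:31117355-31117384). All 3 windows are in the 3′UTR, and bases inside a match are in capitals.
Abca1, 8mer, 7mer-m8 and 8mer: attCAATGCAATGCActtCAATGCAAcgag
Abcg1, 8mer and 7mer-m8: gcaacgCAATGCAAcgCAATGCAgacagtg
Abcg1, 7mer-A1: tgcaaacataaAATGCAActcgggtgcagt
In Abca1 the first 2 matches overlap. Of 20665 protein-coding genes with a 3′UTR, 1.91% held an 8mer, 13.9% held any match and 0.571% held 3 or more. Both Abca1 (3′UTR of 3156 bases) and Abcg1 (3703 bases) held 3, and the other 7 members, with 3′UTRs of 254 to 1534 bases, held 0. The members' 3′UTR lengths differ, and a longer 3′UTR offers more positions for a match.

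**Figure D1:**
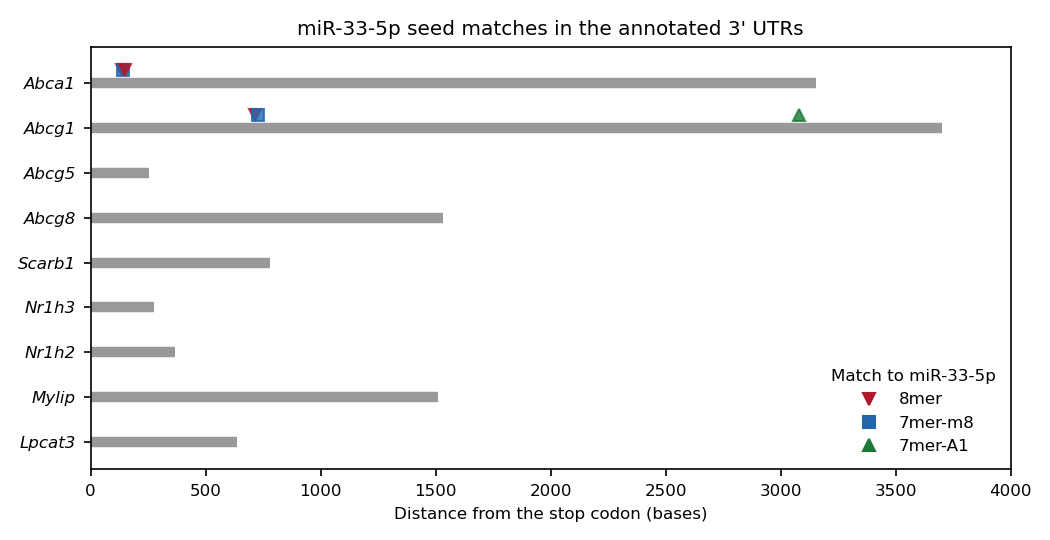
Annotated 3′UTRs of the 9 genes as grey bars to scale, with the distance from the stop codon in bases on the x axis and each miR-33-5p seed match marked by kind above the bar. The matches of Abca1 form 1 group near base 135, those of Abcg1 lie near base 717 and at base 3081, and the other 7 genes have none.

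The promoters were searched for the LXR response element type DR4, 2 copies of AGGTCA 4 bases apart on either strand, with up to 2 mismatches in their 12 bases. RefSeq windows of 250 bases before to 50 after the start matched 7 members with 9 windows (none for Abcg1 and Scarb1). None of these windows held such a motif, against 3.02% of 32851 promoters of the same length. The fewest mismatches, 3, were in Abca1.

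In all, 130451427 UMIs came from 30078 WT barcodes and 52563185 UMIs from 20000 HKO barcodes. Classes were named from clusters by marker lists (a class is called X-like). The hepatocyte-like class held 2036 WT and 3933 HKO barcodes, with medians of 19640 and 3886 UMIs. There were 105 and 209 endothelial-like, 8 and 31 stellate-like, 80 and 176 macrophage-like and 224 and 961 lymphocyte-like (T, NK, B and plasma) barcodes. Each class carried its own markers: of the 12 endothelial, 12 stellate, 13 macrophage, 13 T and NK and 9 B and plasma markers, only the stellate marker Des was at 0, in the 8 WT barcodes. A further 27049 WT and 12560 HKO barcodes lay in clusters not named for another cell type and had fewer than 2 times the commonest depth of their library. They are called barcodes of free RNA depth and taken here to hold free hepatocyte RNA. No profile of known empty droplets was used, so shallow hepatocytes among them cannot be told apart, and each subtracted level rests on this choice. Hepatocyte transcripts were present in every class. Scaled by 12 hepatocyte transcripts, this profile made up 44.9% and 28.1% of the endothelial-like UMIs in WT and HKO, 41.8% and 34.1% of the stellate-like, 47.7% and 14.2% of the macrophage-like and 48.4% and 33.4% of the lymphocyte-like UMIs. Macrophage-like barcodes came from 2 sub-clusters, a shallow one with 62 WT and 81 HKO barcodes, of whose UMIs free RNA made up 89.3% and 65.96%, and a deeper one with 18 and 95 barcodes and 17.4% and 8.07%. WT macrophage-like barcodes were thus mostly of the shallow sub-cluster and HKO ones mostly of the deeper. Levels below are UMI counts per 1000000 UMIs of the class (CPM). Outside hepatocytes they are given after that RNA was subtracted, beside the UMIs counted and the UMIs it would give. Rankings are among the hepatocyte-like, endothelial-like, stellate-like, macrophage-like and lymphocyte-like classes, and leave out mixed and other classes.

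Abca1 (ENSMUSG00000015243, chr4:53030787-53159895, minus strand, GRCm38) was highest in macrophage-like barcodes. There it had 303 UMIs in WT, where free RNA would give 41.2, and 723 in HKO, where it would give 28.4. After subtraction this was 840.4 CPM (734 to 956) in WT and 728 CPM (674 to 785) in HKO, or 4.33 and 3.51 times the hepatocyte-like level. Hepatocyte-like barcodes had 194 CPM (190.3 to 198) in WT and 208 CPM (202 to 213) in HKO. Endothelial-like barcodes had 217 CPM (161 to 279.8) and 294 CPM (246 to 348), and lay above hepatocytes beyond counting error in HKO only. Stellate-like barcodes had 173 and 187 CPM, with wide intervals that overlapped those of endothelial-like, hepatocyte-like and lymphocyte-like barcodes in both libraries. Lymphocyte-like barcodes were lowest, with 62.6 CPM (30.7 to 98.8) and 98.7 CPM (77.7 to 122). The order macrophage, endothelial, hepatocyte, stellate, lymphocyte was the same in both libraries, but the 3 middle classes were within counting error of each other in WT. With free RNA taken from hepatocyte-like barcodes instead, endothelial-like Abca1 was 177 CPM in WT, below hepatocytes, and lymphocyte-like Abca1 was 20.3 CPM in WT and 81.1 CPM in HKO.

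Lymphocytes were not uniform for Abca1. In T and NK-like barcodes 96 WT and 170 HKO UMIs stood against 79.5 and 111 from free RNA, so WT was within counting error of that background. In B and plasma-like barcodes 41 and 121 UMIs stood against 14.4 and 27.01, which gave 206 CPM (116 to 318) and 293 CPM (229 to 366). These B and plasma-like levels did not overlap the T and NK-like ones of the same library, 29.5 CPM (0 to 67.4) and 47.8 CPM (27.8 to 70.3). Shares of barcodes with an Abca1 UMI were compared at equal depth. In draws of 1000 UMIs per barcode they were 24.6% and 36.1% in macrophage-like, 15.98% and 23.3% in endothelial-like, 17.5% and 16.1% in hepatocyte-like and 9.802% and 12.3% in lymphocyte-like barcodes. The endothelial-like share in WT was below the hepatocyte-like one, unlike the levels after subtraction, and their intervals overlapped. Barcodes of free RNA depth gave 13.4% and 14.8% (barcodes under 1000 UMIs were left out, 380 WT and 8222 HKO barcodes there, 4 and 50 lymphocyte-like, 0 and 19 macrophage-like and 0 hepatocyte-like). These may hold shallow hepatocytes beside free RNA, so their share is not taken as the background of another class. Without equal depth the hepatocyte-like shares were 85.9% and 51.5%, at the unequal median depths given above. In the deeper macrophage-like sub-cluster the shares at equal depth were 50.2% and 49.9%, and in the shallow one, with mostly free RNA, 17.2% and 15.05%.

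Abcg1 (ENSMUSG00000024030, chr17:31057675-31117988, plus strand) was close to absent from hepatocytes and present in endothelial-like, stellate-like, macrophage-like and lymphocyte-like barcodes. Hepatocyte-like barcodes held 49 UMIs in WT and 31 in HKO, 0.971 CPM (0.719 to 1.28) and 1.15 CPM (0.779 to 1.63), and 2.16% and 0.788% of them had a UMI at those unequal depths. At 1000 UMIs per barcode the shares were 0.1002% and 0.144%, against 0.198% and 0.163% in barcodes of free RNA depth, so they were not above those. Macrophage-like barcodes held 87 and 282 UMIs, where free RNA would give 0.566 and 0.372, or 277 CPM (222 to 343) and 295 CPM (262 to 332) after subtraction. Endothelial-like barcodes had 155 CPM (118 to 201) and 96.03 CPM (71.9 to 126), stellate-like 109.6 and 99.5 CPM from 4 and 9 UMIs, and lymphocyte-like 63.4 CPM (45.7 to 85.5) and 80.3 CPM (66.7 to 95.9). Among these classes, macrophage-like barcodes were above the next beyond counting error in both libraries, except for the stellate-like ones in WT. Hepatocytes were below the rest of them in both libraries, and the 3 classes between overlapped their neighbours. Over all kept barcodes of a library, Abcg1 stood at 4.19 CPM in WT and at 19.2 CPM in HKO. These values hold all classes, barcodes of free RNA depth included, in the unequal numbers given above, and are not the level of a cell type.

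Abcg5 (ENSMUSG00000040505, chr17:84658234-84683011, minus strand) and Abcg8 (ENSMUSG00000024254, chr17:84676302-84700333, plus strand) overlap on opposite strands in the annotation. The use of strand in counting is not given in the sources used here, so reads of the overlap are uncertain. Both genes were highest in hepatocytes. Hepatocyte-like barcodes had 40.9 CPM (39.2 to 42.7) of Abcg5 in WT and 25.9 CPM (23.98 to 27.9) in HKO. For Abcg8 the levels were 52.6 CPM (50.6 to 54.6) and 33.7 CPM (31.6 to 35.97). Outside hepatocytes, the UMIs of both genes stayed within counting error of those from free RNA in endothelial-like, macrophage-like and lymphocyte-like barcodes of both libraries. In lymphocyte-like barcodes, for example, 18 and 25 UMIs of Abcg5 were counted where free RNA would give 21.5 and 18.5, and 28 and 19 of Abcg8 where it would give 26.2 and 21.8. The exception was Abcg8 in monocyte and dendritic-like barcodes of WT, with 12 UMIs against 4.69, while in HKO there was 1 against 3.098. Stellate-like barcodes held 1 and 1 UMIs of Abcg5 and 0 and 4 of Abcg8. The 0 in WT, in 8 barcodes, allows a share of up to 37.5% of barcodes with a UMI (3 of 8, the limit used for a count of 0).

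Scarb1 (ENSMUSG00000037936, chr5:125277087-125341094, minus strand) was found in hepatocytes and in several other classes. Hepatocyte-like barcodes had 98.1 CPM (95.4 to 101) in WT and 59.8 CPM (56.9 to 62.8) in HKO. Macrophage-like barcodes held 53 and 132 UMIs, where free RNA would give 23.02 and 7.86, leaving 96.2 CPM (53.5 to 149) and 130.1 CPM (108 to 156). They overlapped hepatocytes in WT and lay above them in HKO. Endothelial-like barcodes had 35.9 CPM (6.39 to 73.3) and 73.96 CPM (50.3 to 103), below hepatocytes in WT and overlapping them in HKO, and stellate-like barcodes, with 5 and 8 UMIs, overlapped every other class in both libraries. Lymphocyte-like barcodes were lowest, with 15.4 CPM (0 to 40.9) and 14.0 CPM (4.81 to 25.1). Among these classes, hepatocytes ranked first in WT and macrophages in HKO. Only in HKO was the distance between the first and the second rank beyond counting error.

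**Figure D2:**
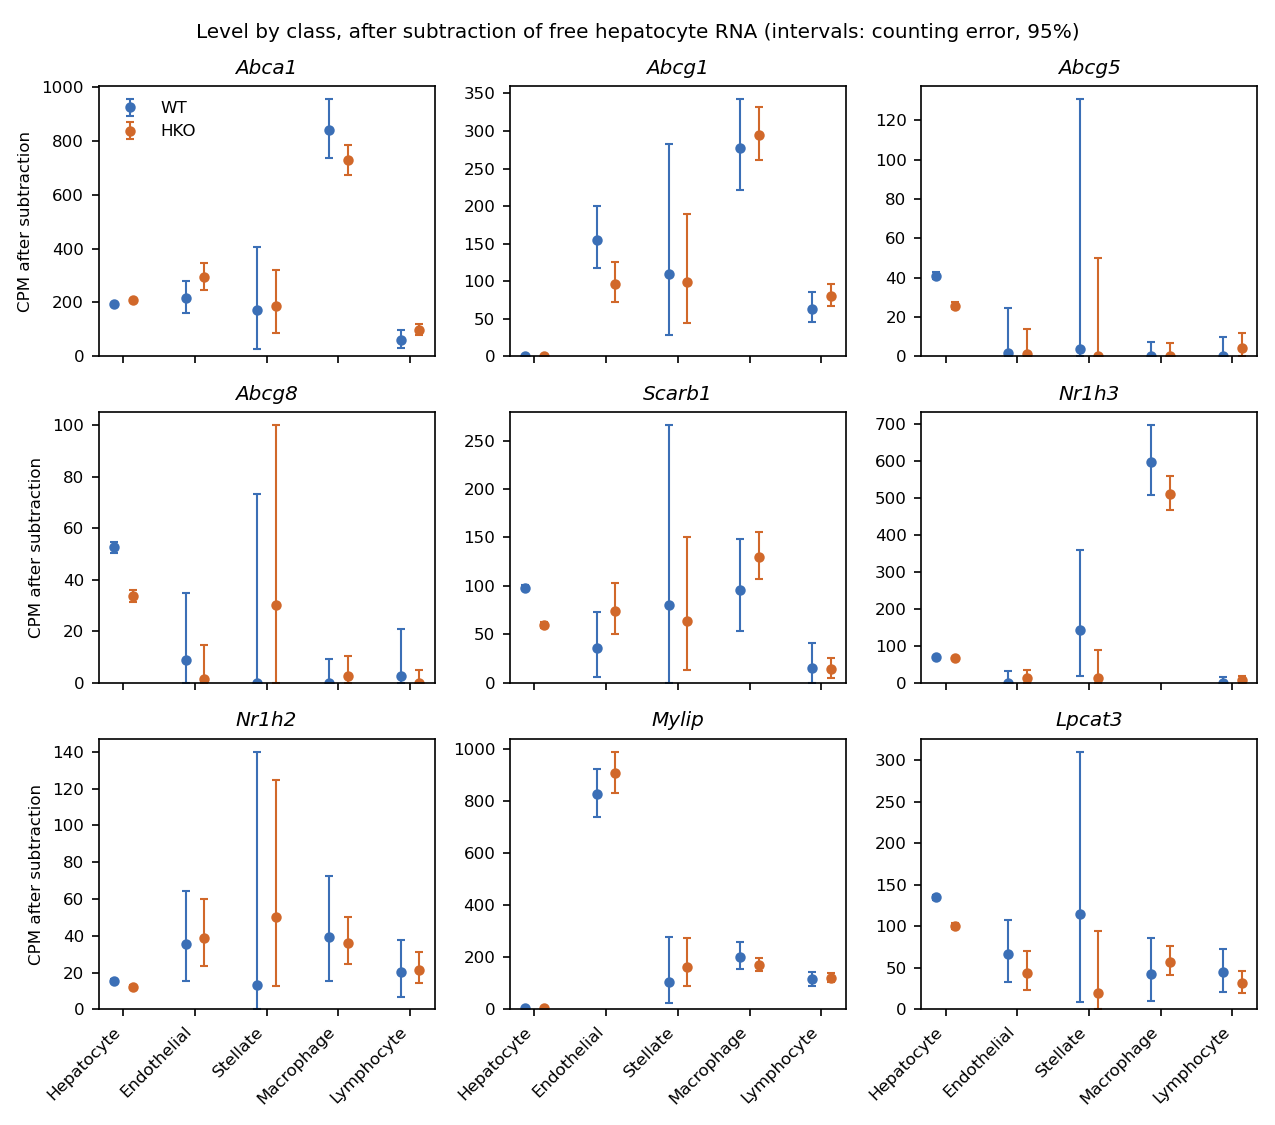
Level of each gene in CPM (y axis, a separate scale per gene) in 5 classes, WT in blue and HKO in orange, after subtraction of free hepatocyte RNA in the 4 classes other than hepatocytes. Points are 1 library each and bars are 95% counting intervals. Macrophage-like barcodes stand highest for Abca1, Abcg1 and Nr1h3, endothelial-like ones for Mylip, and hepatocyte-like ones for Abcg5 and Abcg8.

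The LXR receptors had unlike patterns. Nr1h3 (ENSMUSG00000002108, chr2:91184061-91202834, minus strand) was highest in macrophage-like barcodes, with 217 and 502 UMIs against 30.8 and 13.1 from free RNA, or 598 CPM (508 to 697) and 512 CPM (467 to 560.4). This was 8.39 and 7.71 times the hepatocyte-like levels of 71.3 CPM (68.96 to 73.6) and 66.4 CPM (63.4 to 69.6). In endothelial-like and lymphocyte-like barcodes its UMIs were within counting error of free RNA in both libraries. This rests on the free RNA profile, since with that of hepatocyte-like barcodes 28.9 CPM in WT and 19.7 CPM in HKO were left in endothelial-like and 25.5 and 13.9 CPM in lymphocyte-like barcodes, the WT lymphocyte value above its counting interval of up to 15.3. Stellate-like barcodes held 8 UMIs in WT, above the 2.804 of free RNA, and 5 in HKO, not above the 3.83 there. Barcodes of free RNA depth had 108 and 82.9 CPM of Nr1h3, more than hepatocyte-like barcodes in both libraries. Gm13783, on the same strand, and Gm23390, on the opposite one, overlap its annotation.

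Nr1h2 (ENSMUSG00000060601, chr7:44549616-44553951, minus strand) was low in every class. Hepatocyte-like barcodes had 15.1 CPM (14.1 to 16.3) in WT and 12.1 CPM (10.8 to 13.4) in HKO. There were 39.2 and 35.9 CPM in macrophage-like, 35.7 and 38.7 CPM in endothelial-like and 20.03 and 21.6 CPM in lymphocyte-like barcodes. In WT each class overlapped its neighbour in rank. In HKO hepatocytes were below every class but the stellate-like one, whose interval reached them. The macrophage values rest on 18 and 36 UMIs, so differences among the non-parenchymal classes were not detectable at this depth.

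Of the remaining LXR targets, Mylip was highest in endothelial-like and Lpcat3 in hepatocyte-like barcodes. Barcodes with both endothelial and macrophage markers, set apart as mixed and not ranked, had 3.00 and 1.38 times the hepatocyte-like Lpcat3 level in WT and HKO. These rest on 32 and 17 UMIs. Mylip (ENSMUSG00000038175, chr13:45389742-45412022, plus strand) had 318 WT and 507 HKO UMIs in endothelial-like barcodes, where free RNA would give 2.07 and 1.77, or 827 CPM (738 to 924) and 907 CPM (829.6 to 989.9). That was 184 and 176 times the hepatocyte-like levels of 4.50 and 5.14 CPM. Macrophage-like barcodes had 203 CPM (155 to 259.9) and 171 CPM (145 to 199), and lymphocyte-like ones had 116 and 121 CPM. In draws of 1000 UMIs, 30.02% and 41.6% of endothelial-like barcodes held a Mylip UMI, against 0.478% and 0.496% of hepatocyte-like ones. Lpcat3 (ENSMUSG00000004270, chr6:124663027-124704418, plus strand; Emg1 overlaps it on the opposite strand) had 135 CPM (132 to 138) and 101 CPM (96.8 to 104) in hepatocytes of WT and HKO and between 31.8 and 66.4 CPM in endothelial-like, macrophage-like and lymphocyte-like barcodes. With the profile of hepatocyte-like barcodes, 17.5 CPM were left in endothelial-like and 0 in macrophage-like barcodes of WT. In lymphocyte-like ones 0 were left in WT and 14.7 CPM in HKO, so these levels of Lpcat3 depend on the profile. Its endothelial-like and macrophage-like levels in HKO stayed within their counting intervals. Only the stellate-like interval overlapped that of hepatocytes, in WT.

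**Figure D3:**
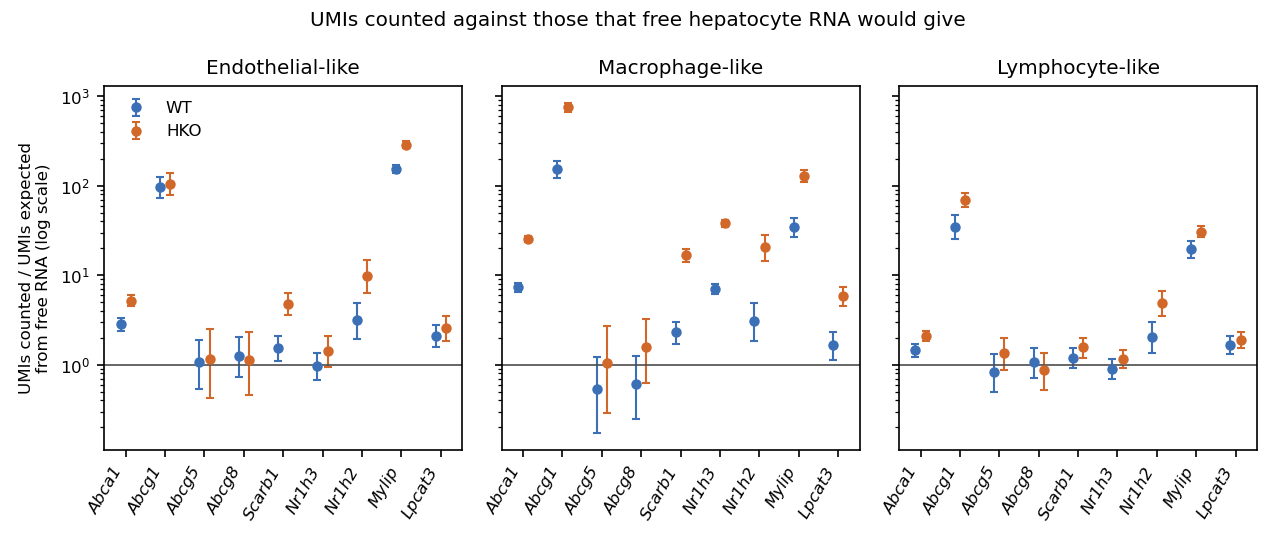
UMIs counted divided by the UMIs that free hepatocyte RNA of the same library would give (y axis, log scale; 1 is marked by a line) for the 9 genes in 3 classes, WT in blue and HKO in orange, with 95% counting intervals on the counted UMIs. Abcg1 and Mylip lie far above 1 in each class, while the intervals of Abcg5 and Abcg8 include 1 in each.

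Counted over the set, a level after subtraction of at least 2 times that of hepatocytes in both libraries was reached by 5 of 8 members with at least 10 UMIs in macrophage-like barcodes (Abca1, Abcg1, Nr1h3, Nr1h2 and Mylip), beside 34.7% of all genes counted the same way. It was reached by 3 of 9 in endothelial-like barcodes (Abcg1, Nr1h2 and Mylip), beside 43.3%, and by 2 of 9 in lymphocyte-like barcodes (Abcg1 and Mylip), beside 44.8%. The endothelial and lymphocyte shares were below those of all genes. In the deeper macrophage-like sub-cluster alone it was reached by 5 of 7, beside 37.1%, and in the shallow one by 3 of 7 (Abcg1, Nr1h3 and Nr1h2), beside 22.7%. Mylip had 5 and 2 UMIs in the shallow one, too few to be counted, at 28.9 and 6.57 times hepatocytes. Abca1 in the shallow sub-cluster was at 1.998 and 0.476 times hepatocytes, 388 CPM (0 to 941) in WT and 98.7 CPM (0 to 357) in HKO.

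The next comparison set HKO hepatocytes against WT hepatocytes, the cells in which the Cre is meant to delete miR-33. Of the 7 members with a mean of at least 10 CPM, 3 were at least 1.5-fold lower in HKO (Abcg5, Abcg8 and Scarb1) and 0 were at least 1.5-fold higher. The class was not made up of the same clusters in both libraries. Cluster 5 held 30.7% of WT and 35.9% of HKO hepatocyte-like barcodes and cluster 6 26.7% and 15.03%, but cluster 9 held 15.4% and 1.02% and cluster 4 3.05% and 22.6%. Compared within clusters and combined over them (Mantel-Haenszel rate ratio, an alternative added after the data were seen), the HKO over WT ratios were 0.739 for Scarb1, 0.767 for Abcg5 and 0.776 for Abcg8, and 0 members reached 1.5-fold. In cluster 5, the largest, they were 0.734 (0.673 to 0.8002), 0.7399 (0.644 to 0.849) and 0.716 (0.637 to 0.804), and in cluster 6 0.755 (0.6698 to 0.849), 0.815 (0.684 to 0.967) and 0.898 (0.764 to 1.05). Over the 5 clusters with at least 100 barcodes in each library, Scarb1 ranged from 0.533 in cluster 3 to 0.809 in cluster 10, Abcg5 from 0.3302 (0.124 to 0.748) in cluster 3 to 1.03 (0.563 to 1.87) in cluster 0 and Abcg8 from 0.597 in cluster 3 to 0.898 in cluster 6. Clusters 0 and 3 held fewer UMIs, with 7 of Abcg5 in HKO in cluster 3. The ratios that follow, strata and other genes included, are over the whole class unless said otherwise. In the same barcodes, the summed level of 10 hepatocyte markers was 70447 CPM in WT and 56478 CPM in HKO, that of 6 erythroid markers 726 and 2421 CPM and that of 7 cholangiocyte markers, 5 of them above 0, 162 and 93.7 CPM, and their part in the members' ratios was not tested. Over 7084 genes with that mean, 4.28% were at least 1.5-fold lower and 2.37% at least 1.5-fold higher. The median log2 ratio of the 7 members was -0.43, against -0.03 for all genes, and 1 of the 7, Abca1, had a ratio above 1. Scarb1 moved from 98.1 to 59.8 CPM, which is a ratio of 0.609 (0.576 to 0.645). HKO over WT was 0.632 (0.579 to 0.689) for Abcg5 and 0.641 (0.594 to 0.691) for Abcg8, whose intervals overlap. Lpcat3 had a ratio of 0.745 (0.712 to 0.779), Nr1h2 of 0.796 (0.697 to 0.908) and Nr1h3 of 0.932 (0.8804 to 0.987).

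Among the carriers of miR-33-5p matches, Abca1 had a ratio of 1.07 (1.03 to 1.105) in hepatocytes. That excess did not hold when each barcode had equal weight, which gave 0.926, and was 1.17 when combined over clusters. Over the 5 clusters with at least 100 barcodes in each library, the Abca1 ratio ranged from 1.05 (0.984 to 1.12) in cluster 6 to 1.37 (0.992 to 1.89) in cluster 0. In cluster 5 it was 1.23 (1.17 to 1.29). For Abcg1, 49 and 31 UMIs gave 1.18 (0.728 to 1.89), an interval that includes 1. Mylip, without a match, had 1.14 (0.918 to 1.42), also including 1. The mature microRNA was not counted, so its loss cannot be read from these libraries.

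**Figure D4:**
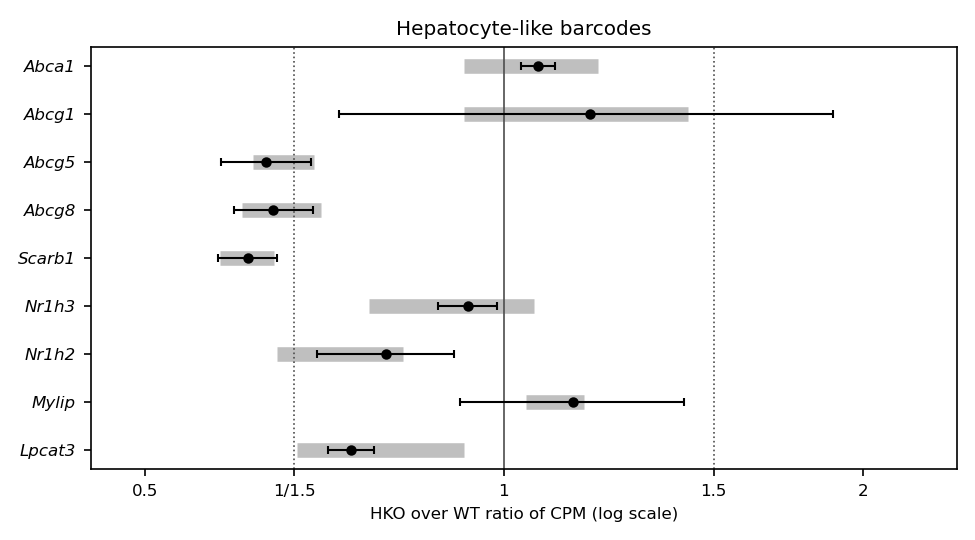
HKO over WT ratio of CPM in hepatocyte-like barcodes (x axis, log scale) for each gene, with black points and bars for the value and its 95% counting interval and grey bars for the range over 8 other ways of processing, 2 of which give identical values and which do not include the ratios combined over clusters. Dotted lines mark 1.5-fold in each direction. Scarb1 lies below the lower line over its whole grey bar, Abcg5 and Abcg8 lie below it in their values, and the grey bars of Abca1, Abcg1 and Nr1h3 cross 1.

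Depth, mitochondrial share and zone differed among hepatocyte-like barcodes, so the barcodes of each library were split into 3 strata of equal size by each of these, and the ratios were taken within the outer strata. Scarb1, Abcg5 and Abcg8 were lower in HKO in each of these 6 strata. The Scarb1 ratio was 0.592 in the periportal stratum and 0.616 in the pericentral stratum, 0.471 and 0.605 in the strata of the lowest and the highest mitochondrial share, and 0.557 and 0.638 in the shallowest and the deepest stratum. Over the same 6 strata Abcg5 ranged from 0.533 to 0.677 and Abcg8 from 0.554 to 0.687, and Lpcat3 from 0.619 to 0.827. For Abca1 the ratio differed with depth, at 0.7996 (0.706 to 0.904) in the shallowest and 1.23 (1.18 to 1.28) in the deepest stratum. For Nr1h3 it differed with mitochondrial share, 0.821 (0.739 to 0.911) in the lowest and 1.18 (1.05 to 1.33) in the highest stratum, and with depth, at 1.13 in the shallowest and 0.821 in the deepest stratum. The depth strata are not matched in depth, since their medians were 7164 and 40366 UMIs in WT and 1925 and 12617 in HKO. Zone strata were also cut in each library apart and are not matched in zone. In the pericentral stratum Glul stood at 408 CPM in WT and 1179 CPM in HKO, and Cyp2f2 at 526 and 251 CPM. In the periportal stratum Cyp2f2 stood at 1164 and 1061 CPM.

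**Figure D5:**
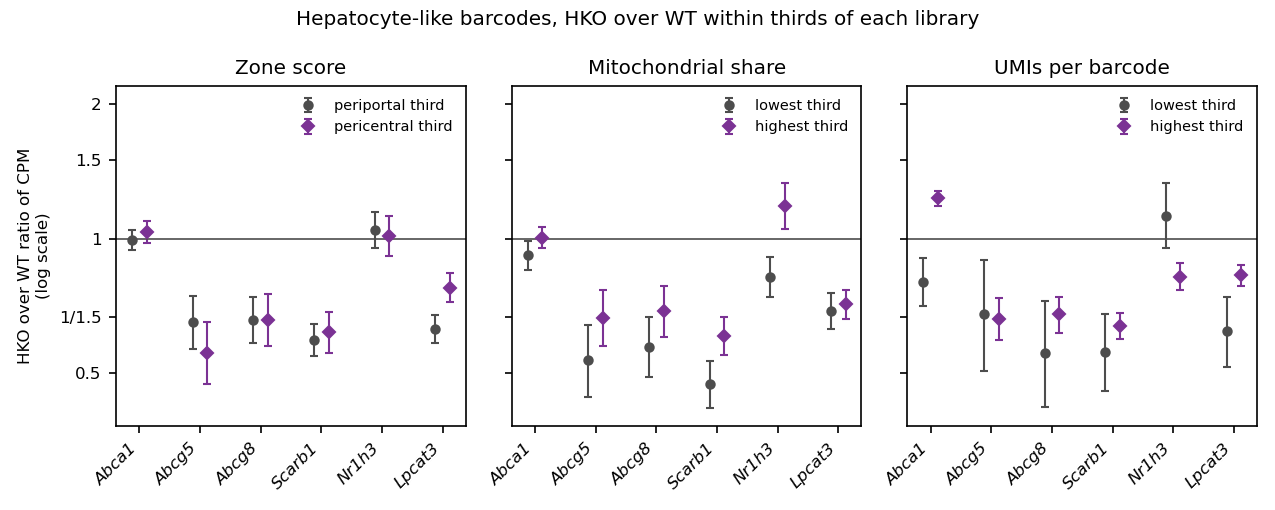
HKO over WT ratio of CPM (y axis, log scale) for 6 genes in hepatocyte-like barcodes of the lowest and the highest of 3 equal strata of each library by zone score, mitochondrial share and UMIs per barcode, with 95% counting intervals. Abcg5, Abcg8, Scarb1 and Lpcat3 lie below 1 in every panel, and Abca1 changes side between the shallowest and the deepest stratum.

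Within each library, the CPM of members also differed with the mitochondrial share. CPM are per all UMIs, mitochondrial ones included, so a larger mitochondrial share by itself lowers the CPM of every other gene. Between the strata of the lowest and the highest share, whose median mitochondrial shares were 1.397% and 29.8% in WT and 1.101% and 28.1% in HKO, Abca1 went from 172 to 246 CPM in WT and from 158 to 247 CPM in HKO. Nr1h3 went from 97.8 to 46.5 CPM in WT and from 80.3 to 55.03 CPM in HKO. The ratios of the highest to the lowest were 1.43 (1.36 to 1.499) and 1.56 (1.45 to 1.69) for Abca1 and 0.475 (0.433 to 0.5199) and 0.685 (0.602 to 0.779) for Nr1h3. Nr1h2 had 0.701 (0.581 to 0.844) in WT and 0.734 (0.539 to 1.003) in HKO, where the interval included 1. Lpcat3 had 1.08 (1.02 to 1.15) and 1.12 (1.01 to 1.24). Scarb1 CPM were lower in the highest stratum in WT, 0.913 (0.853 to 0.978), and higher in HKO, 1.17 (1.02 to 1.35). These directions hold for CPM and were not taken per non-mitochondrial UMI. How far the falls of Nr1h3, of Nr1h2 and, in WT, of Scarb1 come from the mitochondrial UMIs in the total was not tested. The other ratios hold that effect too. The part of RNA quality in these differences was not tested.

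Position along the lobule was read from a score of pericentral minus periportal genes, which are no members. Between the pericentral and the periportal stratum the members differed little. Scarb1 was higher on the periportal side, 106 against 89.4 CPM in WT and 62.8 against 55.1 CPM in HKO. Lpcat3 was higher on the pericentral side, with 152 against 137 CPM in WT and 118 against 85.6 CPM in HKO, ratios of 1.11 (1.05 to 1.18) and 1.38 (1.26 to 1.504). For the other 7 members the interval included 1 in at least 1 library. How many of all genes differed by zone was not counted. In the outermost 10% of the score on each side, Abca1 was also higher on the pericentral side, with ratios of 1.402 (1.295 to 1.52) and 1.43 (1.298 to 1.57), while the Scarb1 interval in HKO included 1. In HKO the periportal stratum was deeper than the pericentral one, with medians of 7763 and 3254 UMIs. The score is continuous: 219 and 179 of 2036 WT barcodes and 412 and 363 of 3933 HKO barcodes lay within 0.1 of the lower and the upper limit.

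In non-parenchymal cells, which the albumin promoter is not meant to target, the comparison of HKO with WT rests on fewer UMIs. In macrophage-like barcodes Abcg1 was at least 1.5-fold higher in HKO, the only one of 8 members with at least 10 UMIs, beside 30.4% of all genes, and Abcg8 was at least 1.5-fold lower from 7 and 7 UMIs, beside 20.5%. Abcg1 stood at 146 CPM in WT and at 253 CPM in HKO as counted, a ratio of 1.73 (1.36 to 2.23). After subtraction of free RNA the ratio was 1.06, and in the deeper sub-cluster it was 1.18 (0.915 to 1.53), from 80 and 272 UMIs. The difference as counted thus moved with the free RNA share and with the sub-cluster. A single WT barcode held 24.1% of the WT UMIs of Abcg1, and without the highest barcode of each library the ratio was 2.05. In the deeper sub-cluster the Abca1 ratio was 0.939 (0.814 to 1.09), the Nr1h3 ratio 0.953 (0.80 to 1.14), the Mylip ratio 0.935 (0.691 to 1.28) and the Scarb1 ratio 1.49 (0.995 to 2.296), and each interval included 1.

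In endothelial-like barcodes 0 of 9 members were at least 1.5-fold higher, beside 17.9% of all genes, and 2 were at least 1.5-fold lower (Abcg5 and Abcg8, both at the level of free RNA), beside 16.3%. Abca1 stood at 184 CPM in WT and at 262 CPM in HKO as counted, a ratio of 1.42 (1.13 to 1.79), and 1.36 after subtraction. Mylip had a ratio of 1.43 (1.24 to 1.65) as counted and 1.097 after subtraction. Abcg1 had 0.806 (0.547 to 1.18) and 0.618, Scarb1 1.19 (0.773 to 1.86) and 2.06, Lpcat3 0.746 (0.478 to 1.16) and 0.664, and Abcg8 0.392 (0.136 to 1.01) and 0.174. After subtraction Scarb1 was thus past 1.5-fold higher and Abcg1, Lpcat3 and Abcg8 past 1.5-fold lower, and Nr1h3, with 0 CPM left in WT and 14.2 CPM in HKO, had no ratio. How many of all genes were past 1.5-fold after subtraction was not counted. Free RNA made up more of the WT than of the HKO endothelial-like UMIs, and its part in these ratios as counted was not tested beyond the subtraction. The class joined a deeper sub-cluster, with 61 WT and 146 HKO barcodes, and a shallower one with 44 and 63. Hepatocyte markers were enriched in the shallower one over the other sub-clustered barcodes, and ratios within each were not taken.

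In lymphocyte-like barcodes 1 of 9 members, Abcg1, was at least 1.5-fold higher, beside 15.0% of all genes, and 2, Abcg8 and Scarb1, were at least 1.5-fold lower, beside 14.7%. Abcg1 had a ratio of 1.61 (1.14 to 2.32) as counted, from 45 and 126 UMIs, and 1.27 after subtraction. Abca1 had 1.22 (0.995 to 1.51) and 1.58, the latter from levels that moved with the free RNA profile as given above. B and plasma-like barcodes made up 34 of 224 lymphocyte-like barcodes in WT and 198 of 961 in HKO. Taken apart, the Abca1 ratio as counted was 1.06 (0.821 to 1.38) in T and NK-like and 1.43 (0.995 to 2.09) in B and plasma-like barcodes, and each interval included 1. Scarb1 had 0.548 (0.379 to 0.794) as counted and 0.911 after subtraction. In barcodes of free RNA depth the Scarb1 ratio was 0.611 (0.561 to 0.665), that of Abcg5 was 0.719 (0.635 to 0.812) and that of Abcg8 was 0.696 (0.621 to 0.778), all below 1 as in hepatocytes. In stellate-like barcodes no member had over 25 UMIs in a library, and the ratio of Abca1 was 1.14 (0.529 to 2.66).

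Around the 9 genes, 7 lists of the same pathway were described in hepatocytes, leaving out genes under 10 CPM. Of 7 LXR partners and co-regulators with at least 10 CPM, 0 moved 1.5-fold in either direction, with a median log2 ratio of 0.05. Rxra, the partner of the LXRs, stood at 116 CPM in WT and at 119.6 CPM in HKO. Of 6 lipogenic LXR targets, 3 were at least 1.5-fold lower, namely Srebf1 (ratio 0.211), the master regulator of lipogenesis, the fatty acid synthase Fasn (0.266) and the acetyl-CoA carboxylase Acaca (0.438), and 1, the desaturase Scd1, was higher (1.604). Of 8 HDL and apolipoprotein genes, 1 was lower, the endothelial lipase Lipg (0.597), and 0 were higher, with a median of -0.29. Of 7 genes of the bile acid outlet, 2 were lower, the sterol hydroxylase Cyp27a1 (0.6496) and the bile salt pump Abcb11 (0.576), and 1 was higher, Cyp7a1 (3.25), the rate-limiting enzyme of bile acid synthesis.

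Srebf2, the host gene of miR-33, had 24.8 and 19.8 CPM. Of 6 genes of cholesterol storage and lysosomal transport, 2 other sterol ABC transporters and 6 other miR-33 targets, 0 moved 1.5-fold in either direction, with medians of -0.02, -0.16 and 0.12. Among the latter, the carnitine acyltransferases Crot and Cpt1a had ratios of 1.13 (1.11 to 1.14) and 1.37 (1.33 to 1.41). The other 4 were Ppargc1a at 1.14 (1.06 to 1.23), Hadhb at 1.04 (1.01 to 1.08), Atp8b1 at 0.931 (0.872 to 0.995) and Irs2 at 0.914 (0.846 to 0.987). The background shares for these counts are those of hepatocytes given above. Combined over clusters, Srebf1 (0.268), Fasn (0.276), Acaca (0.517), Scd1 (1.79) and Cyp7a1 (3.14) were still beyond 1.5-fold, while Lipg (0.677), Cyp27a1 (0.756) and Abcb11 (0.696) were not, and Crot (0.982) and Irs2 (1.04) changed side of 1.

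Genes with the most similar pattern were sought over 15 points, 1 per class and library with at least 20 barcodes, by Pearson's r of log2(CPM after subtraction + 1) among 13930 genes. The points share libraries, depth and free RNA, so r is a description. The closest were Scamp5 (r = 0.872), Ctsf (0.841) and Clec4f (0.815) for Abca1. For Abcg1 they were Msn (0.964), Atp8a1 (0.9603) and Arhgef2 (0.960), for Abcg5 Cth (0.952), BC028777 (0.948) and Abcb11 (0.943), and for Abcg8 Car14 (0.828) and Asgr2 (0.822). Scarb1 was closest to Prkar2a (0.953), Entr1 (0.915) and Psma4 (0.896), Nr1h3 to Fth1 (0.921), Dhx58 (0.868) and Oasl1 (0.867), and Nr1h2 to Cflar (0.888), Nod1 (0.876) and Hic1 (0.874). Mylip was closest to Rgl2 (0.938), Abi1 (0.938) and Serinc3 (0.937), and Lpcat3 to Ilrun (0.964), Sar1b (0.924) and Pank3 (0.919).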

How the data were processed

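The deposited matrices hold whole UMI counts, which the authors obtained with Cell Ranger 7.1.0 (matrix header) on mm10 (submitters' processing notes), not normalized. By default this version also counts introns, and the options used are not given in the sources used here. Kept barcodes had 500 or more UMIs, 300 or more genes and at most 50% mitochondrial UMIs (29620 WT and 18247 HKO). They were clustered (2000 variable genes, 30 components, 15 neighbours, Leiden resolution 1.0, igraph 0.11.9, Python 3.11.15), and clusters with non-hepatocyte markers were clustered once more. A class was named by the list with most markers detected in at least 10% of barcodes and at least 2-fold enriched, with at least 3. This rule was refined after the data were seen. Sub-clusters with markers of several classes were set apart as mixed, and 1 (19 WT and 41 HKO barcodes) with more markers of another class than of its own among its top 10 genes stayed unnamed. Hepatocyte-like barcodes had at least 2 times the commonest depth (5140 UMIs in WT and 1626 in HKO). The automatic threshold of Scrublet (scanpy 1.11.5) marked 0 barcodes, so none were left out by score. WT barcodes' sequences were not analysed here, so barcodes shared by the libraries were not counted.

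UMIs were summed per class and library. CPM have exact Poisson, shares exact Clopper-Pearson and ratios exact conditional intervals (scipy 1.17.1). Free RNA was the profile of barcodes of free RNA depth of the same library, scaled by 12 hepatocyte transcripts. Shares at equal depth are the expected shares in draws of 1000 UMIs, leaving out shallower barcodes. With 1 library per genotype there was no test. The ratio, its interval and the free RNA subtraction were tested on simulated counts with Poisson spread only. Clustering, class naming, the zone score and the sequence search were not. Members and lists were chosen with earlier results of these data known. Named genes were all members, up to 3 genes per list beyond 1.5-fold by size, Srebf2, Crot, Cpt1a and the 3 genes closest to each member (1 list and 1 of these genes are not reported here), and Rxra, Scd1 and the other miR-33 targets were added after their values were seen. Alternatives were other depth, doublet, weight, scaling and mitochondrial settings, other minimums and folds, and the outermost 10% of the zone score. For free RNA they were the profile of hepatocyte-like barcodes and scaling by Alb alone. Added after the data were seen were the deeper and the shallow macrophage sub-cluster alone, hepatocyte ratios combined over clusters and Abcg1 without its highest barcode.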

Additional observations from a re-analysis of the deposited data

How the results depend on the processing

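The lower hepatocyte levels of Scarb1, Abcg5 and Abcg8 in HKO kept their direction under 8 alternatives, 2 of which give identical values, with ratios of 0.578 to 0.642, 0.616 to 0.693 and 0.603 to 0.702. Without a depth minimum, Abcg5 and Abcg8 had ratios of 0.693 and 0.702, short of 1.5-fold, and Nr1h2 reached 0.645. The Abca1 ratio was 1.199 without a depth minimum and 1.14 with at least 5000 UMIs, and it reversed to 0.926 with barcodes weighted equally, which is also the value expected after thinning to 1000 UMIs. Nr1h3 reversed to 1.06 under the same 2 settings. Combined over clusters, added after the data were seen, the ratios were 0.739 for Scarb1, 0.767 for Abcg5, 0.776 for Abcg8, 1.17 for Abca1 and, reversed, 1.03 for Nr1h3, and 0 members were 1.5-fold lower. The cause was not tested. At 2-fold, 0 of the members were lower or higher in hepatocytes.

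With at least 30 UMIs, 0 members were lower in endothelial-like and 0 in macrophage-like barcodes, where Abcg5 and Abcg8 had fewer. After subtraction of free RNA, 1 member (Scarb1) was higher and 3 (Abcg1, Abcg8 and Lpcat3) were lower in endothelial-like barcodes, 0 were higher and 0 lower in macrophage-like ones, and in lymphocyte-like ones 1 (Abcg8, with a level of 0 left in HKO) was lower and 1 (Abca1 in place of Abcg1) higher. Members with 0 left in WT alone have no ratio and are not among those counted as higher (Nr1h3 in endothelial-like and lymphocyte-like, Abcg5 in lymphocyte-like and Abcg8 in macrophage-like barcodes). In the deeper macrophage-like sub-cluster 0 were higher and 0 lower, and in the shallow one 3 members were above hepatocytes. For the counts of members higher or lower in HKO in this paragraph, the same share over all genes was not taken. Counts of members above hepatocytes were the same with the profile of hepatocyte-like barcodes and with the main profile scaled by Alb alone. In the outermost 10% of the zone score 2 members (Abca1 and Lpcat3) were pericentral and 0 periportal, and the share of all genes was not taken. Of 126 levels by class under alternatives, 6 moved beyond their counting interval, all with the profile of hepatocyte-like barcodes (Lpcat3 in 4, Abca1 and Nr1h3 in WT lymphocyte-like barcodes), and 67 of 72 shares did so without thinning. No paired analysis was possible because each group has 1 library. Stellate-like barcodes, 8 in WT, limit every statement on that class.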
